A study of Mus musculus with 7 samples.

Results

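Single-cell RNA-seq of the Wnt1-Cre lineage was examined for 7 genes, of 32285 genes in the files: Emx2, E330013P04Rik, 3110099E03Rik, Smoc1, Pou3f3, Pantr1 and Pou3f4. The genes were selected by symbol from these same libraries, because their transcripts were found with those of Emx2 and were lower in mesenchymal cells of the null-labelled E10.5 libraries. Values of that contrast, and of the cells with Emx2, are therefore given below as descriptions with no test. The data go against calling all 7 genes lost in the null-labelled libraries: 4 were nearly absent from the E10.5 mesenchymal cells, and Pou3f3, Pantr1 and Pou3f4 were still found there.

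The 7 libraries were made from EGFP-positive cells sorted from mouse embryos of a mixed Swiss-Webster background that carried Wnt1-Cre/+ and ROSA-EGFPf/+. Wnt1-Cre is active in the dorsal neural tube and the neural crest that leaves it, so the sorted cells hold both arch mesenchyme and neural cells. The 4 control libraries (Wnt1-Cre/+;ROSA-EGFPf/+) came from E8.5 (1 library, anterior part of the embryo), E9.5 (1 library, pharyngeal apparatus with heart) and E10.5 (2 libraries, arches 2 to 6 with heart). The 3 other libraries, 1 of E9.5 and 2 of E10.5, are titled as Tbx1 null, while their genotype label reads Wnt1-Cre/+;Tbx1+/-;ROSA-EGFPf/+. The study itself describes them as homozygous for the Tbx1 null allele. They were grouped by their titles and are called null-labelled here. 3' tags need not lie in the deleted stretch, and the Tbx1 level in E10.5 mesenchymal cells overlapped, at 7.10 and 4.13 CPM in the controls against 6.16 and 5.97 CPM in the null-labelled libraries. In E10.5 neural cells it went the way of the titles, at 1.37 and 0.856 CPM (61 and 16 UMIs) against 0.0524 and 0.157 CPM (4 and 10 UMIs). At E9.5 the neural cells held 17 Tbx1 UMIs in the control against 1. The E9.5 mesenchymal cells held more, and did not differ, at 0.914 CPM (95 UMIs) against 0.906 CPM (119 UMIs). Each library pooled embryos of 1 genotype, so p-values over libraries measure the spread between pools. By the study's somite counts, the embryos of null-labelled E10.5 replicate 1 were younger than those of both controls. Those of replicate 2 lay within the range of the controls. The part of stage in the E10.5 differences was not tested. Arch 1 was left out of the E10.5 dissection in both groups. The study cites earlier work in which arch 2 cells moved abnormally into arch 1 of Tbx1 null embryos at E9.5. Whether the E10.5 cut left like tissue in both groups was not tested. The kit was v3.1 for both E10.5 controls and null-labelled replicate 2 and v3 for null-labelled replicate 1, and with v3.1 alone the mesenchymal Emx2 level was 31.8 and 45.2 CPM against 0.366 CPM. At E9.5 the kit was v3.1 for the control and v3 for the null-labelled library, so kit and genotype cannot be told apart there.

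After filtering, 5587 to 9557 cells per library were kept, with a median of 14855.5 to 22882 UMIs per cell, and any pair of libraries shared 0 to 44 barcodes. Cells with at least 2 UMIs of Twist1, Prrx1 and Prrx2 together were called mesenchymal, and cells with a Sox2 UMI and no Twist1 UMI were called neural. Cells that met both rules (79 to 560 per library) were left out. At E10.5 there were 3035 and 6535 mesenchymal cells in the controls and 2632 and 1695 in the null-labelled libraries. The 8 mesenchymal markers summed to 1531.5 to 2027.0 CPM in E10.5 mesenchymal cells and to 41.6 to 120.5 CPM in E10.5 neural cells. The mesenchymal cells of null-labelled E10.5 replicate 2 stood apart: 7 neuron markers summed to 895.8 CPM there against 132.7 CPM in null-labelled replicate 1 and 83.7 and 63.7 CPM in the controls. Several lists of other cells were higher in both null-labelled libraries than in both controls of these cells: 12 neural markers at 127.3 and 78.6 CPM in the controls against 238.2 and 570.4 CPM, 6 markers of glial crest at 37.0 and 18.1 CPM against 100.3 and 192.3 CPM, 7 of epithelium at 47.9 and 36.0 CPM against 57.2 and 66.6 CPM, and 5 of urogenital tissue and kidney at 19.7 and 19.4 CPM against 25.5 and 46.9 CPM. The 6 blood markers summed to 9.07 CPM in null-labelled replicate 2 against 0.0731 to 1.02 CPM. The urogenital list holds Gata3 and the neuron list Isl1, which the study found in neural crest cells of the outflow tract. The part of these markers in the results was not tested.

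Emx2 is a homeobox transcription factor, best known for patterning the forebrain and for building the urogenital tract, and mice without it have malformed middle ear and shoulder bones. E330013P04Rik and 3110099E03Rik are long non-coding RNA genes of unknown role. Smoc1 is a secreted matricellular calcium-binding protein that modulates BMP signalling. Pou3f3 (Brn1) and Pou3f4 (Brn4) are POU-domain transcription factors of the developing brain, kidney and inner ear, and Pantr1 is a long non-coding RNA gene that lies head to head with Pou3f3. Pharyngeal arch mesenchyme is patterned from front to back by Hox genes, with Hox2 paralogs on from arch 2 and Hox3 paralogs from arch 3, and from its upper to its lower part by Dlx genes, with Dlx5 and Dlx6 in the more ventral cells.

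The genes lie on 5 chromosomes (GENCODE M21, GRCm38). Emx2 is at chr19:59458372-59465357 on the plus strand and E330013P04Rik at chr19:60144675-60162591 on the same strand, 679317 bases further on. Pou3f3 (chr1:42695768-42703176, plus strand) and Pantr1 (chr1:42590782-42694842, minus strand) are transcribed away from each other, with 925 bases between their starts. 3110099E03Rik is at chr2:115493513-115527744 on the minus strand, Smoc1 at chr12:81026808-81186414 on the plus strand, and Pou3f4 at chrX:110814280-110817207 on the plus strand.

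Upstream sequence of 4 of these genes is shown because the genes were lower in the same null-labelled libraries, as is the stretch of Emx2 that holds a homeodomain core motif. RefSeq (GRCm38.p6) gave a start for 5 of the 7 genes. Capitals mark TAATTA, a core bound by many homeodomain factors, and CCAAT, a common promoter element, on the strand shown or as its complement. The sequences read 5' to 3' on the gene's strand: E330013P04Rik from chr19:60144425-60144674 (plus), 3110099E03Rik from chr2:115512202-115512451 (minus), Pou3f3 from chr1:42695518-42695767 (plus), which is 250 of the 925 bases between it and Pantr1, Pou3f4 from chrX:110814129-110814279 (plus) and Emx2 from chr19:59458710-59458739 (plus), within the transcribed part of the gene.
E330013P04Rik: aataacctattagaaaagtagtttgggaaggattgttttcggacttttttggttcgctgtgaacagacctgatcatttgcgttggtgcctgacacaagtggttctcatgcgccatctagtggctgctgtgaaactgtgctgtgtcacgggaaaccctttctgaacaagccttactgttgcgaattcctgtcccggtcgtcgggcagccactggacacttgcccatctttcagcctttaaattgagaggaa
3110099E03Rik: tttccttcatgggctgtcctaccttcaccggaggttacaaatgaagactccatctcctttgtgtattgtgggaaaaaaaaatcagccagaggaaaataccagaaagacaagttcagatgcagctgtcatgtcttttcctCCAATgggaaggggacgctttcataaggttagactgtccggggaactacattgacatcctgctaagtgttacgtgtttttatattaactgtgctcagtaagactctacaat
Pou3f3: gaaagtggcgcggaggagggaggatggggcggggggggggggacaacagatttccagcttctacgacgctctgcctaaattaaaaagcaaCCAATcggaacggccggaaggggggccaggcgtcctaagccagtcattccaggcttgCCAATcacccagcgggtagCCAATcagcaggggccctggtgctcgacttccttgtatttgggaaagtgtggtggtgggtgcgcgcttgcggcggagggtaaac
Pou3f4: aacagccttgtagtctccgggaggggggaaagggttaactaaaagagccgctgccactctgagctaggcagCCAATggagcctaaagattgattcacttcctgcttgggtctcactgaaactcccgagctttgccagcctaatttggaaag
Emx2: tatgtgatccccgcacTAATTAggctcatg

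The 6 motifs were searched on both strands in windows from 250 bases before to 50 bases after the RefSeq start. TAATTA was found in Emx2 alone among the 5 genes, once, and in 5.29% of the 32851 windows of all genes. CCAAT was found 3 times in Pou3f3 (at -160, -103 and -84 from the start), 3 times in Pou3f4, and once each in Emx2 and 3110099E03Rik, and 37.4% of all windows held it. The octamer ATGCAAAT, which POU factors bind and which 1.74% of windows held, and the E-box CATATG (3.92%) were in none of the 5. TGACAG (19.2% of windows) was found once in 3110099E03Rik and once in Pou3f3, and CAGATG (17.2%) once in 3110099E03Rik. No match of the 6 motifs was found in the E330013P04Rik window, which says only that these letters are not in it. The RefSeq start of 3110099E03Rik lies inside the GENCODE gene, so its window is not that of the longest transcript.

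Emx2 was close to absent from mesenchymal cells until E10.5, when it was found in the controls and hardly in the null-labelled libraries. Levels are counts per 1e6 UMIs of the cell class in a library (CPM), scaled by edgeR's TMM factors unless said otherwise. The sums of marker lists above, and the levels in cells with and without an Emx2 UMI below, were not scaled by TMM. The Emx2 level in mesenchymal cells was 0.313 CPM in the control E8.5 library, 0.0385 CPM (4 UMIs) in control E9.5, 31.8 and 45.2 CPM in control E10.5 replicates 1 and 2, 0.0304 CPM (4 UMIs) in null-labelled E9.5, and 0.273 and 0.366 CPM in null-labelled E10.5 replicates 1 and 2. Both controls of E10.5 thus stood far above every other library, and the E9.5 libraries of both genotypes did not differ beyond counting error. The mean was 38.5 ± 9.45 CPM (SD, n = 2) in the controls of E10.5 and 0.320 ± 0.0664 CPM (SD, n = 2) in the null-labelled libraries, where it rested on 22 and 20 UMIs. In sums over cells, fewer cells with the transcript and less transcript per cell cannot be told apart, and the shares of cells are given further on.

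The non-coding RNA genes E330013P04Rik and 3110099E03Rik were likewise found in the E10.5 controls and hardly elsewhere. The 3110099E03Rik level in E10.5 mesenchymal cells was 38.97 and 43.4 CPM in the controls and 0.235 and 0.183 CPM in the null-labelled libraries, a ratio of means of 197. At E9.5 it was 0.125 CPM (13 UMIs) in the control and 0.0381 CPM (5 UMIs) in the null-labelled library, and no UMI was counted in E8.5 mesenchymal cells, which allows up to 0.0586 CPM. The E330013P04Rik level was lower in the E10.5 controls, at 7.03 and 7.82 CPM, and was 0.273 and 0.385 CPM in the null-labelled libraries, a ratio of means of 22.6. Neither gene had overlapping values between the groups at E10.5.

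Smoc1 lay between these genes and the POU genes in the size of its difference. Its level in E10.5 mesenchymal cells was 13.5 and 15.2 CPM in the controls and 0.669 and 1.28 CPM in the null-labelled libraries, a ratio of means of 14.7. It was already counted at E9.5, at 1.00 CPM (104 UMIs) in the control and 0.647 CPM (85 UMIs) in the null-labelled library. The E10.5 null-labelled values were thus near those of E9.5, while the E10.5 controls were 14.4 times the E9.5 control.

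Pou3f3, Pantr1 and Pou3f4 were not absent from the null-labelled E10.5 mesenchymal cells. The Pou3f3 level was 28.9 and 44.4 CPM in the controls and 14.4 and 16.7 CPM in the null-labelled libraries. For Pantr1 it was 69.3 and 73.8 CPM against 30.2 and 59.1 CPM, and for Pou3f4 20.4 and 37.5 CPM against 4.86 and 17.5 CPM. The ratios of control to null-labelled means were 2.36, 1.60 and 2.59 in that order. Null-labelled replicate 2 was the higher of its pair for all 3 genes. The direction of Pantr1 was lost when cells of both classes were kept (fitted log2 fold 0.00068), and its unthinned shares of cells, 31.6% and 29.6% in the controls against 31.2% and 55.2%, were not lower. In the controls their levels had been present a day earlier, at 10.3, 12.3 and 1.80 CPM in E9.5 mesenchymal cells for Pou3f3, Pantr1 and Pou3f4.

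**Figure D1:**
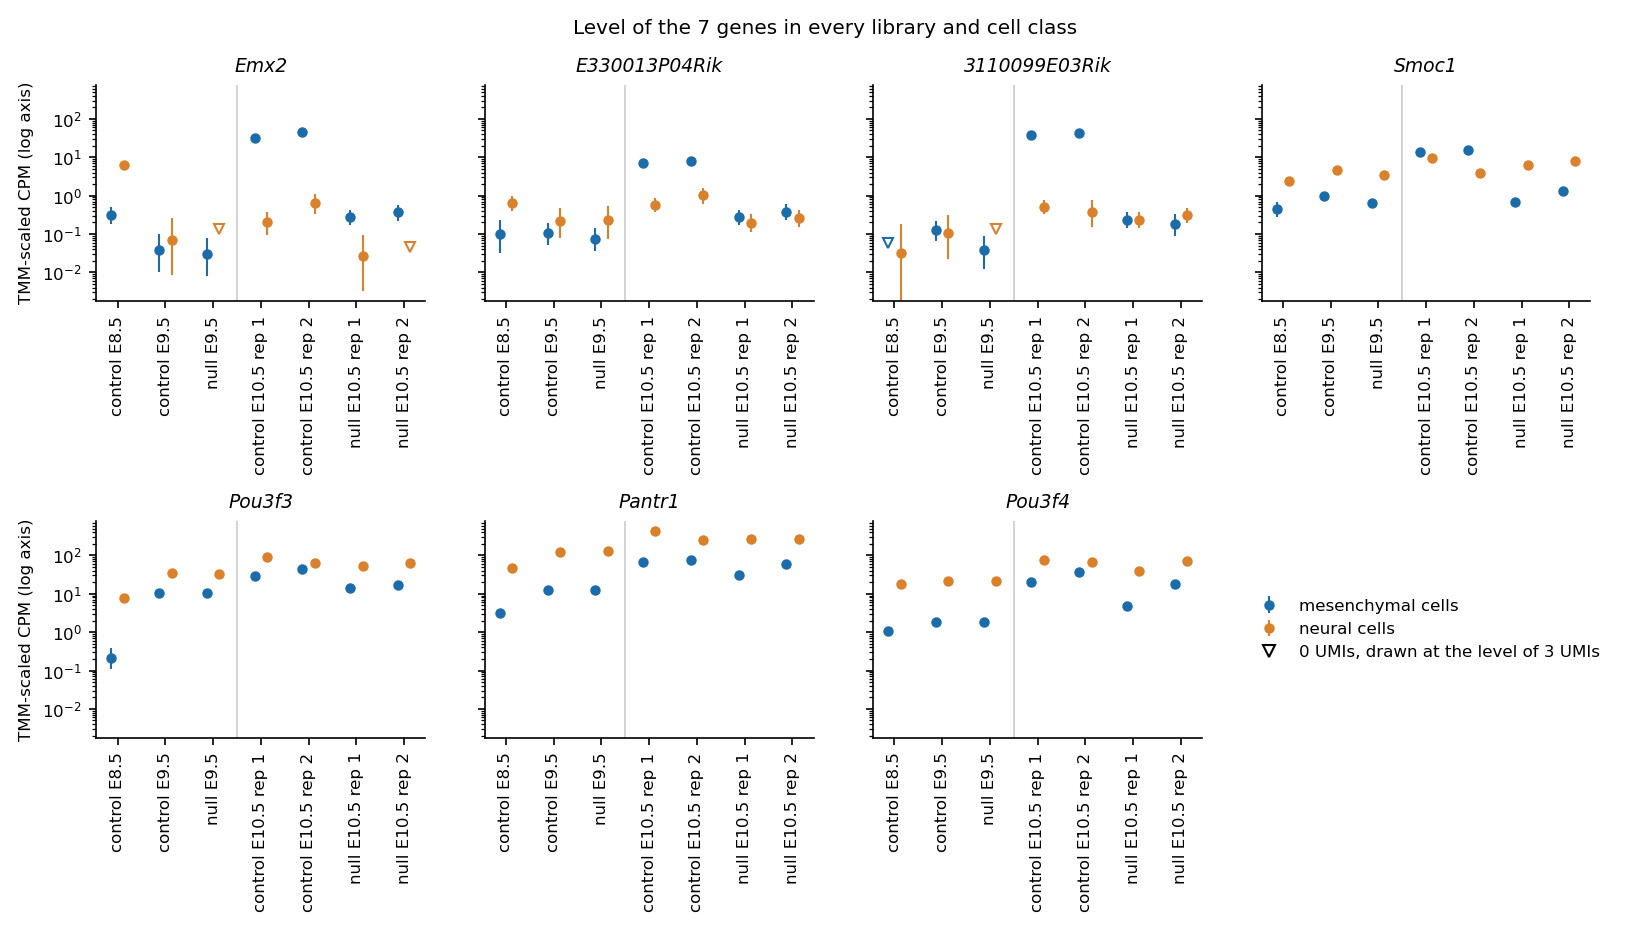
Level of each of the 7 genes (TMM-scaled CPM, log axis) in mesenchymal (blue) and neural (orange) cells of each of the 7 libraries, with exact 95% Poisson intervals that cover counting error only. Open triangles mark 0 UMIs, drawn at the level of 3 UMIs. In mesenchymal cells Emx2 sits at 31.8 and 45.2 CPM in the E10.5 controls and at or under 0.366 CPM in the other 5 libraries.

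All 7 genes had both null-labelled values below both controls in E10.5 mesenchymal cells, as the choice of the genes required, while 24.7% of the 15672 genes tested were lower in this way and 24.6% were higher. TMM scaling lowered the null-labelled libraries most. Their factors, by which levels are divided, were higher than those of the controls by 0.17 in mean log2. Without this scaling, 5 of 7 genes had both null-labelled values below both controls, against 13.1% of all genes. The exceptions were Pantr1, at 78.1 and 81.6 CPM against 35.6 and 78.6 CPM, and Pou3f4, at 23.0 and 41.5 CPM against 5.73 and 23.3 CPM. In both cases the overlap came from null-labelled replicate 2, the library with the most neuron marker UMIs per 1e6.

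In edgeR's quasi-likelihood fit over all genes, the log2 fold (null-labelled minus control) was -7.61 (SE 0.30) for 3110099E03Rik, -6.95 (SE 0.34) for Emx2, -4.53 (SE 0.33) for E330013P04Rik, -3.92 (SE 0.36) for Smoc1, -1.41 (SE 0.58) for Pou3f4, -1.26 (SE 0.27) for Pou3f3 and -0.70 (SE 0.32) for Pantr1. The fit called 4 genes in all (0.0255% of those tested at an adjusted p of 0.05), and 3 of the 4 belong to the set that was selected on this contrast, so nothing is read from that count. The remaining call, 2410018L13Rik, was chosen here after its value was seen and had a log2 fold of -3.43. The count of calls depended on single libraries, at 8 without control replicate 1, 3 without control replicate 2, 1229 without null-labelled replicate 1 and 319 without null-labelled replicate 2. When a library was left out, the fold of Emx2 stayed between -7.19 and -6.67, that of 3110099E03Rik between -7.80 and -7.44 and that of E330013P04Rik between -4.76 and -4.26. Smoc1 was at -4.42 without null-labelled replicate 2 and at -3.48 without replicate 1. Pantr1 was at -1.24 without null-labelled replicate 2 and at -0.27 without replicate 1, and Pou3f4 at -2.58 and -0.72. Pou3f3 was at -1.55 without control replicate 1 and at -0.92 without control replicate 2.

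Neural and neuron markers, like Pou3f3, Pantr1 and Pou3f4, were higher in null-labelled replicate 2 than in replicate 1 of the main class. Between the genotypes these markers were higher in both null-labelled libraries, while the TMM-scaled levels of the 3 genes were lower there. Under a stricter rule (at least 4 UMIs of Twist1, Prrx1 and Prrx2 and no Sox2 UMI), levels in CPM without TMM in null-labelled replicates 1 and 2 were 16.04 and 10.9 CPM for Pou3f3, 21.9 and 31.8 CPM for Pantr1, and 4.14 and 9.88 CPM for Pou3f4. The stricter controls held 32.6 and 49.4 CPM of Pou3f3, 75.1 and 81.2 CPM of Pantr1, and 22.3 and 42.4 CPM of Pou3f4. The groups did not overlap for these 3 genes. The share of all genes without overlap was not taken under this rule, so nothing is read from that. The log2 folds under this rule were -1.71 for Pou3f3, -1.69 for Pantr1 and -2.40 for Pou3f4, each lower than before, against -6.63 for Emx2 and -7.77 for 3110099E03Rik. Neuron transcripts remained higher in null-labelled replicate 2 even so, with Tubb3 at 119.1 CPM against 17.9 to 29.8 CPM in the other 3 libraries. The part of these cells in the levels of Pou3f3, Pantr1 and Pou3f4 was not tested.

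Counted as cells, the contrast was of the same order. Each cell was thinned to 5000 UMIs, which left out 7 to 154 shallower mesenchymal cells per E10.5 library, and intervals are Clopper-Pearson at 95%. An Emx2 UMI was found in 11.1% (9.98 to 12.3%) and 13.8% (12.97 to 14.7%) of mesenchymal cells in the controls and in 0.192% (5 of 2607 cells) and 0.237% (4 of 1688 cells) in the null-labelled libraries. The control neural cells, a background for free RNA at the same depth, held an Emx2 UMI in 0.0844% and 0.162% (2 cells each), and the intervals of the null-labelled shares reached down to 0.0623% and 0.0646%. In the neural cells of the null-labelled libraries themselves it was 0.0278% (1 of 3596 cells) and 0 of 2919 cells, which allows a share of up to 0.103%, and at this depth the intervals of both classes overlapped. Without thinning they did not: an Emx2 UMI was in 0.646% (0.377 to 1.03%) and 0.767% (0.409 to 1.31%) of null-labelled mesenchymal cells against 0.0548% (0.00664 to 0.198%) and 0 of 2993 neural cells. The mesenchymal cells were deeper, at a median of 25072.5 and 22157 UMIs against 16947 and 15829.

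For 3110099E03Rik the share of mesenchymal cells was 10.3% and 11.1% in the controls and 0.153% and 0.119% in the null-labelled libraries. For E330013P04Rik it was 3.71% and 3.88% against 0.0384% and 0.178%, and for Smoc1 7.05% and 6.34% against 0.307% and 0.652%. Pou3f3 was found in 10.6% and 15.1% of control cells and in 7.40% and 9.60% of null-labelled cells. Pantr1 and Pou3f4 overlapped between the groups, at 16.3% and 18.6% against 12.5% and 23.9% for Pantr1 and at 7.08% and 11.6% against 3.11% and 9.60% for Pou3f4. Both genes were found in more cells of null-labelled replicate 2 than of replicate 1, by intervals that do not overlap. Without thinning, Pou3f3 overlapped between the groups too, at 21.94% and 24.84% of control cells against 19.68% and 25.55% of null-labelled cells.

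**Figure D2:**
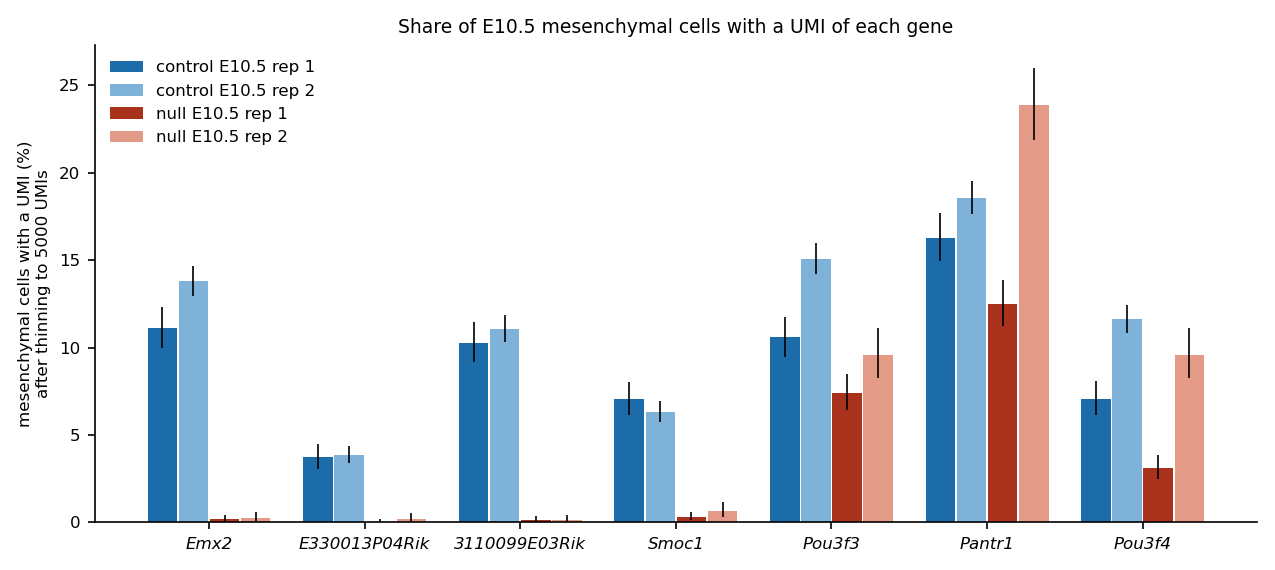
Share of E10.5 mesenchymal cells (%) with a UMI of each gene after thinning to 5000 UMIs, in the 2 control (blue) and 2 null-labelled (red) libraries, with Clopper-Pearson 95% intervals. Emx2 falls from 11.1% and 13.8% to 0.192% and 0.237%, while Pantr1 ranges from 12.5% to 23.9% with the null-labelled values on both sides of the controls.

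At E9.5, a day before, Pou3f3, Pantr1 and Pou3f4 differed little between the genotypes, with 1 library each and so no test. The ratio of the null-labelled to the control level in mesenchymal cells was 1.01 (0.928 to 1.09) for Pou3f3, 1.05 (0.974 to 1.13) for Pantr1 and 1.01 (0.832 to 1.23) for Pou3f4, with intervals that cover counting error only. It was 0.647 (0.480 to 0.870) for Smoc1 and 0.304 (0.0849 to 0.910) for 3110099E03Rik, the only 2 of the 7 genes whose interval excluded 1. For Emx2 (0.791, 0.147 to 4.25) and E330013P04Rik (0.719, 0.274 to 1.87) the counts of 4 to 11 UMIs could not show a difference. Without thinning, an Emx2 UMI was in 4 of 5073 control (0.0789%, 0.0215 to 0.202%) and 4 of 6778 null-labelled (0.0590%, 0.0161 to 0.151%) E9.5 mesenchymal cells, and after thinning in 0 of 5045 and 0 of 6599. The E9.5 dissection included arch 1, which the E10.5 dissection did not.

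Arch position was read from Hox and Dlx UMIs, which the choice of the genes did not use. Since the genes were chosen for being found with Emx2, a position shared with Emx2 is in part given by that choice. The differences between genotypes by arch position are part of the contrast that chose the genes and are described with no test. Mesenchymal cells were split into those with a UMI of Hoxa3, Hoxb3 or Hoxd3, those without these but with Hoxa2 or Hoxb2 (Hox2 only), and those with neither, and each was split by a UMI of Dlx5 or Dlx6. In the controls, the Hox2-only Dlx5/6 cells were 33.2% and 29.2% of the E10.5 mesenchyme and held 72.6% and 69.2% of its Emx2 UMIs. They held 78.4% and 76.3% of the 3110099E03Rik UMIs, 68.4% and 66.2% of the E330013P04Rik UMIs and 77.5% and 73.3% of the Smoc1 UMIs. The same cells held a smaller part of the POU genes, with 38.0% and 35.2% of the Pou3f4 UMIs, and the Hox2-only cells without Dlx5/6 held 36.7% and 45.8%. Emx2, E330013P04Rik, 3110099E03Rik and Smoc1 were thus mainly in cells with Hox2 and Dlx5/6 UMIs and no Hox3, while Pou3f3, Pantr1 and Pou3f4 were split between cells with and without Dlx5/6.

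In the Hox2-only Dlx5/6 cells, levels (CPM without TMM) were the highest of the 6 kinds of cell in both controls for Emx2, E330013P04Rik, 3110099E03Rik and Smoc1. The Emx2 level was 68.2 and 99.4 CPM in the controls, 0.167 CPM (2 UMIs in 415 cells) in null-labelled replicate 1, and 0 of the UMIs of 44 cells in replicate 2, which allows up to 2.71 CPM. The 3110099E03Rik level was 90.1 and 105.2 CPM against 0.585 and 1.81 CPM, and the Smoc1 level 31.0 and 35.4 CPM against 1.59 and 0.904 CPM. The POU genes and Pantr1 differed by more here than over all mesenchymal cells, with Pou3f3 at 42.5 and 65.6 CPM against 6.43 and 4.52 CPM, Pantr1 at 89.8 and 103.3 CPM against 12.95 and 26.2 CPM, and Pou3f4 at 22.9 and 42.0 CPM against 1.17 and 1.81 CPM. A count of 3 UMIs makes 2.71 CPM in the 44 cells of replicate 2. The 3110099E03Rik, Smoc1 and Pou3f4 values of replicate 2 thus rest on fewer than 3 UMIs, and that of Pou3f3 on few.

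In the Hox2-only cells without Dlx5/6, the Emx2 level was 21.1 and 35.2 CPM in the controls against 0.611 and 0.320 CPM, while Pou3f3 differed by less, at 67.8 and 91.7 CPM against 46.7 and 30.9 CPM. Pantr1 was at 166.5 and 150.9 CPM against 69.3 and 67.0 CPM, and Pou3f4 at 59.1 and 100.5 CPM against 10.1 and 22.6 CPM. These are the cells with the highest Pou3f3, Pantr1 and Pou3f4 levels in the controls.

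In the cells with Hox3 UMIs and Dlx5/6, the groups overlapped for Pantr1, at 30.1 and 26.2 CPM against 11.3 and 28.8 CPM. In those without Dlx5/6 they overlapped for Smoc1, Pou3f3, Pantr1 and Pou3f4, while Emx2 was at 5.90 and 10.8 CPM against 0.356 and 0.596 CPM. Pou3f3 was then at 13.2 and 10.2 CPM in the controls and 10.6 and 22.5 CPM in the null-labelled libraries.

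In the cells with neither Hox2 nor Hox3 UMIs but with Dlx5/6, the Emx2 level was 22.1 and 39.95 CPM in the controls and no UMI was found in the 32 and 8 null-labelled cells, which allows up to 3.96 and 16.4 CPM. Without Dlx5/6 it was 8.35 and 11.5 CPM in the controls against no UMI in 135 and 63 cells, which allows up to 1.12 and 2.495 CPM. Pou3f3 in these last cells was at 17.8 and 28.9 CPM in the controls against 41.6 and 16.6 CPM, so that null-labelled replicate 1 lay above both controls.

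Of the mesenchyme of null-labelled replicate 2, 77.2% had Hox3 UMIs, against 57.8% in replicate 1 and 32.2% and 24.8% in the controls, and its Hox2-only Dlx5/6 cells numbered 44. The share of cells with a Hox3 UMI thus moved with genotype. Dlx5, at 72.1 and 55.4 CPM in the controls against 31.3 and 2.44 CPM, and Dlx6, at 34.8 and 29.8 CPM against 12.7 and 1.85 CPM, moved too, so that the bins need not hold like cells in both groups. These bins were set by single UMIs in unthinned cells, and whether the composition of the mesenchyme differed was not tested. Emx2, chosen on this contrast, was lower in both null-labelled libraries within each of the 6 bins. The share of all genes lower in this way was not taken by bin.

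**Figure D3:**
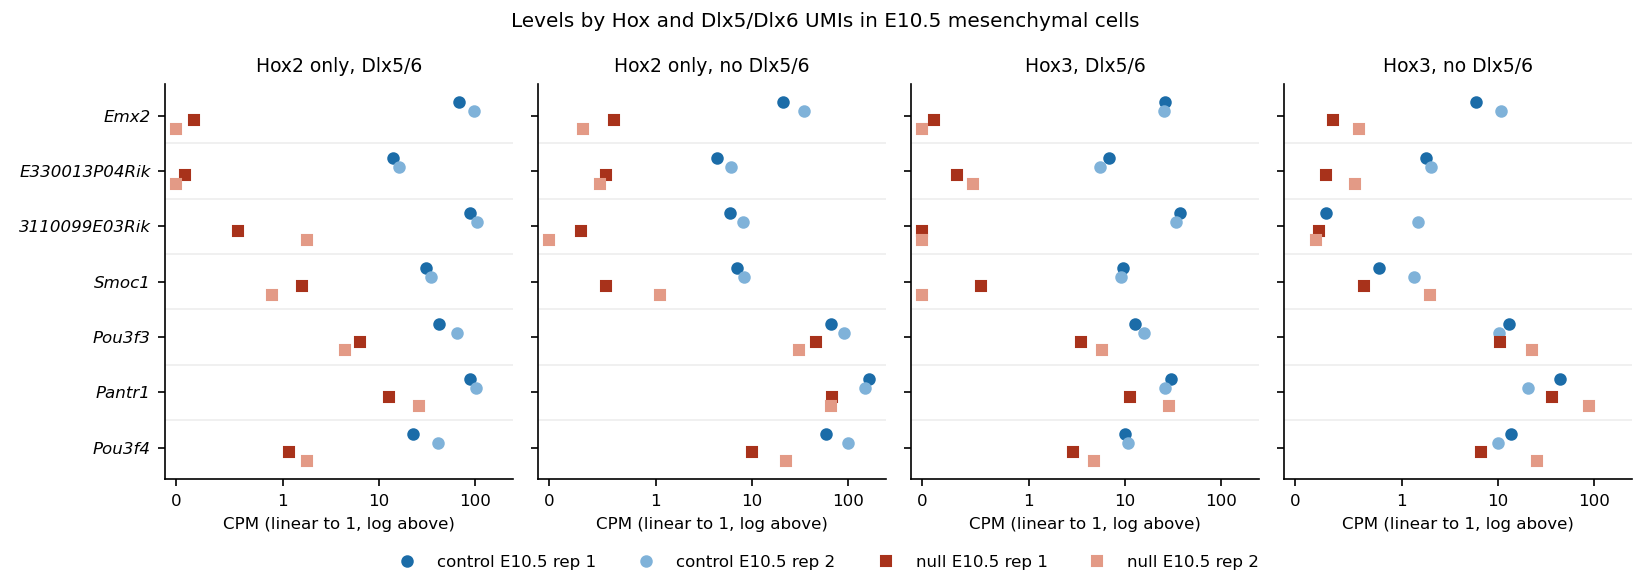
Level of each gene (CPM without TMM, linear up to 1 and logarithmic above) in E10.5 mesenchymal cells split by Hox2, Hox3 and Dlx5/6 UMIs, for the 2 control (circles) and 2 null-labelled (squares) libraries. Emx2 sits at 68.2 and 99.4 CPM in the control cells with Hox2 only and Dlx5/6 and at 5.90 and 10.8 CPM in those with Hox3 and no Dlx5/6, where the Pou3f3 values of the groups overlap. Cells with neither Hox2 nor Hox3 UMIs are not drawn.

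Lists of arch genes gave the setting. Of 24 dorsoventral arch genes (Dlx, Hand, Msx, endothelin and others) 0 were called by edgeR in E10.5 mesenchymal cells, 4 were higher and 6 lower at an unadjusted p under 0.05, and the median log2 fold was -0.49 against -0.01 over all genes. Of 20 anteroposterior genes (Hox paralogs and cofactors) 0 were called, 9 were higher and 0 lower at an unadjusted p under 0.05, and the median was 0.80. Over all genes 14.1% had an unadjusted p under 0.05. Without null-labelled replicate 2 the medians were -0.38 for the dorsoventral and 0.62 for the anteroposterior list, and without null-labelled replicate 1 they were -0.45 and 0.79. Each of these fits held 1 null-labelled library, so no calls of the lists are read from them. The lowest adjusted p of each list was that of Gsc (log2 fold -2.44, edgeR adjusted p = 0.0644), a homeobox gene of ventral arch cells, and of Hoxd3 (1.85, adjusted p = 0.0691), both chosen after their values were seen.

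Relatives of the 7 genes were examined from a fixed list of 5. Emx2os, the antisense transcript that overlaps Emx2 by 264 bases, was at 3.06 and 4.20 CPM in control E10.5 mesenchymal cells and had 1 and 4 UMIs in the null-labelled cells (log2 fold -6.53, edgeR adjusted p = 0.0618). Smoc2, the paralog of Smoc1, was at 4.41 and 4.05 CPM against 0.520 and 0.696 CPM (log2 fold -2.82, adjusted p = 0.0644). The other POU class III genes went the opposite way, with Pou3f2 at 4.63 and 2.69 CPM in the controls against 10.9 and 40.0 CPM (log2 fold 2.78, adjusted p = 0.187) and Pou3f1 at 3.60 and 1.91 CPM against 4.56 and 21.4 CPM (2.21, adjusted p = 0.261). None of these passed the threshold with all 4 libraries, and Emx1, with 0 to 1 UMI per E10.5 library, was not tested. In both cases the higher null-labelled value was that of replicate 2. Without that library the folds were 1.59 for Pou3f2 and 0.74 for Pou3f1, and without replicate 1 they were 3.46 and 2.97. Each of these fits held 1 null-labelled library, so its folds are given with no test. In the stricter mesenchymal cells Pou3f2, in CPM without TMM scaling, was at 1.73 and 1.57 in the controls against 4.26 and 13.98, where the main class gave 5.22 and 2.98 against 12.9 and 53.3.

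Genes next to the 7 did not pass the test, which only 0.0255% of all genes passed, so they are not shown to be unchanged. Emx2os, which overlaps Emx2, is described above. Within 200 kb, the Emx2 neighbours Pdzd8 (log2 fold -0.51) and Slc18a2 (0.39), Fam204a beside E330013P04Rik (-0.70, edgeR adjusted p = 0.254), BC052040 beside 3110099E03Rik (0.31), Slc8a3 beside Smoc1 (-1.47, adjusted p = 0.263) and Mrps9 beside Pou3f3 (-0.35) were all above an adjusted p of 0.05. Pantr2 and AC122898.1, which lie at or over the Pou3f3 locus, had log2 folds of -0.20 and -0.73 at under 1 CPM in each library. Their reads may be split with those of Pou3f3 and Pantr1.

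The genotypes were then compared in E10.5 neural cells. The 7 genes were chosen on mesenchymal cells of these same libraries, and free RNA of those cells may be counted in the neural cells. Their values here are therefore given with no test. The edgeR fit called 0 of 15017 genes (0% of those tested), with 774 at an unadjusted p under 0.05 (5.15%), and DESeq2 called 38. Pantr1, the most abundant, was at 436.0 and 249.9 CPM in the controls and 260.9 and 274.9 CPM in the null-labelled libraries (log2 fold -0.33). Pou3f3 was at 88.9 and 63.1 CPM against 52.2 and 62.1 CPM (-0.38), Pou3f4 at 73.7 and 66.7 CPM against 38.99 and 69.7 CPM (-0.34), and Smoc1 at 9.82 and 3.91 CPM against 6.14 and 7.89 CPM (0.04). The values of Pantr1, Pou3f4 and Smoc1 overlapped between the groups. The Smoc1 direction turned in 5 of its alternatives, so no direction is read from its fold.

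Emx2 was rare in E10.5 neural cells of both groups, with 9 and 12 UMIs in the controls and 2 and 0 in the null-labelled libraries, a fitted log2 fold of -4.53 (SE 1.15) that depends on the prior count. E330013P04Rik was at 0.586 and 1.02 CPM against 0.197 and 0.267 CPM (-1.72) and 3110099E03Rik at 0.518 and 0.375 CPM against 0.236 and 0.315 CPM (-0.70). Counting libraries, 4 of the 7 genes (Emx2, E330013P04Rik, 3110099E03Rik and Pou3f3) were lower in both null-labelled libraries, and 19% of all genes were. Without TMM scaling Pou3f3 overlapped too, and the share of all genes was 11.9%.

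Neural and mesenchymal cells were compared next, a contrast that the choice of the genes did not make but that shares its E10.5 mesenchymal values. Over all 7 libraries with the library as a term, edgeR called 43.6% of 14823 genes, 19.5% higher and 24.1% lower in neural cells, and 52.5% had an unadjusted p under 0.05. It called 3 of the 7 genes, a share near that of all genes, so nothing is read from the count. Since this fit holds the E10.5 mesenchymal values, control and null-labelled, that chose the genes, its folds for them are given with no test. The log2 fold (neural minus mesenchymal) was 2.78 for Pantr1, 2.56 for Pou3f4 and 1.75 for Pou3f3, with neural cells higher in 7 of 7 libraries each, and 1.48 for Smoc1. In the 4 control libraries alone the folds were 2.82 for Pantr1, 2.46 for Pou3f4, 1.85 for Pou3f3 and 0.43 for Smoc1. The control E10.5 mesenchymal values took part in the choice too, so these are also given with no test. The relatives Pou3f1 (2.36) and Pou3f2 (4.297) were called higher in neural cells over all libraries.

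Emx2, 3110099E03Rik and E330013P04Rik had negative folds over all libraries (-4.15, -3.23 and -0.79) and were not called. In the 4 E10.5 libraries, where these folds rest on the mesenchymal values that chose the genes and are given with no test, they were -6.63 for Emx2 and -2.25 for E330013P04Rik. Without the E8.5 library, where the neural level of Emx2 was above its mesenchymal one, the Emx2 fold was -6.33. That of 3110099E03Rik was -4.52 without null-labelled E10.5 replicate 2. Both were the lowest values when a library was left out of the fit over all libraries. The highest were -2.372 for Emx2 and -1.502 for 3110099E03Rik, and the E330013P04Rik fold ranged from -1.477 to -0.099. All of these are again given with no test. Of all Emx2 UMIs of kept cells, 97.9% and 95.8% were in mesenchymal cells and 0.351% and 0.205% in neural cells of the E10.5 controls. For Pantr1 the corresponding values were 17.8% and 57.1% in mesenchymal and 62.9% and 29.0% in neural cells, the controls differing in how many neural cells they held (36.6% and 14.1%).

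Emx2 at E8.5 was a neural transcript. Its level there was 6.39 CPM in neural and 0.313 CPM in mesenchymal cells, and 80.4% of its UMIs were in neural cells. The 113 neural cells with an Emx2 UMI (of 1923) had E330013P04Rik at 4.67 CPM (12 UMIs), against 0.220 CPM (8 UMIs) in the 1810 others, a ratio of 21.3 (7.99 to 59.9, counting error only). The ratio was 0.495 (0.211 to 0.992) for Pou3f3, 0.713 (0.553 to 0.907) for Pantr1 and 0.472 (0.278 to 0.754) for Pou3f4, which were thus lower in the Emx2 cells. For Smoc1 (0.798, 0.212 to 2.14) and for 3110099E03Rik, with 0 and 1 UMI (0 to 552.5), the counts could not show a direction. Among genes at 20 CPM or more in the Emx2 cells, those with the largest ratios, chosen after their values were seen, were Olig2 (13.4), Hopx (10.9), Wnt8b (10.4) and Pax6 (8.89), of which Wnt8b and Pax6 are markers of forebrain neuroepithelium. This rests on 1 library, in which cells with Emx2 were also somewhat deeper (median 21896 against 19365.5 UMIs).

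Within control E10.5 mesenchyme, the 6 other genes were the 6 most like Emx2, a measure close to the one that chose them and given as a description. Likeness was the log2 ratio of CPM in cells with an Emx2 UMI (672 and 1586 cells) to CPM in cells without one (2363 and 4949), taking the smaller of the 2 controls, among 5293 genes with at least 20 CPM in the Emx2 cells of both. It was 3.82 for E330013P04Rik, 3.43 for Smoc1, 2.67 for Pou3f3, 2.49 for Pantr1, 2.28 for 3110099E03Rik and 2.04 for Pou3f4. Cells with an Emx2 UMI were deeper, with a median of 26090.5 against 21633 UMIs in control 1 and 18283 against 15694 in control 2.

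Next came Dclk1 (1.92), a doublecortin-like kinase, Kctd12 (1.86), Rgmb (1.83), a BMP co-receptor, Pcdh19 (1.78), a protocadherin, Enpp2 (1.76), which makes lysophosphatidic acid, and Cntfr (1.70). The step from Pou3f4 to Dclk1 was small, so the 7 genes have no sharp edge by this measure. They were picked by their level and ratio in Emx2 cells of the controls alone, so their folds by genotype are given with no test. The log2 fold was -2.63 for Pcdh19, -2.2 for Enpp2, -1.75 for Kctd12 and -1.18 for Dclk1. Rgmb (-0.12) and Cntfr (-0.05) were near 0. Emx2os (4.16) and Smoc2 (3.28) had higher ratios at levels under the limit of 20 CPM.

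**Figure D4:**
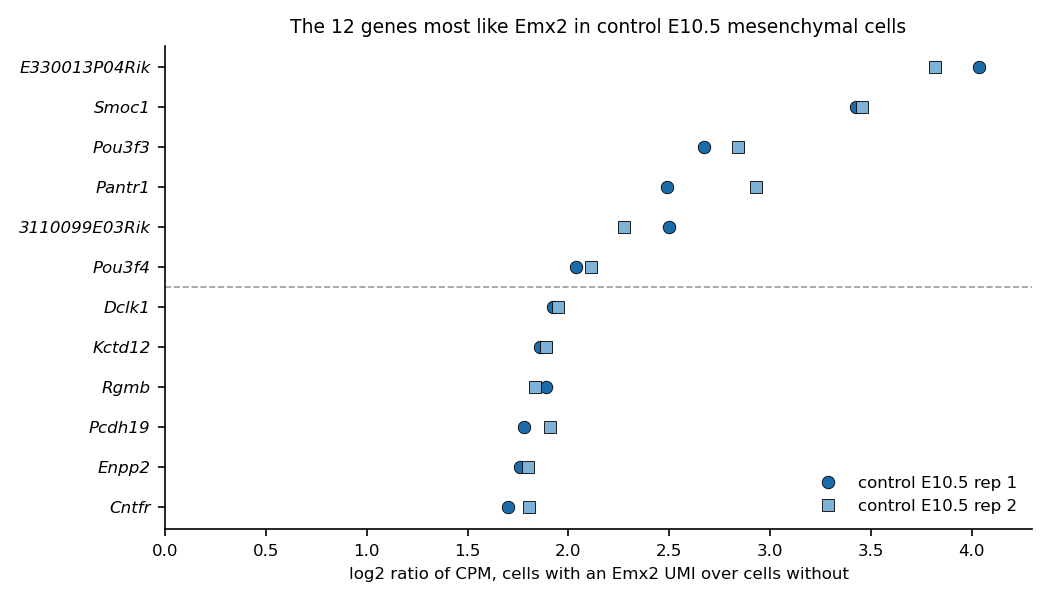
Log2 ratio of CPM in E10.5 mesenchymal cells with an Emx2 UMI to cells without, for the 12 genes with the largest ratio in both controls (circles, replicate 1; squares, replicate 2). The dashed line separates the 6 selected genes, from 3.82 for E330013P04Rik to 2.04 for Pou3f4, from the next gene, Dclk1, at 1.92.

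Pairs of genes were then compared in single cells thinned to 5000 UMIs, as cells with both over the number that independent detection would give. In controls 1 and 2 this ratio was 4.21 and 4.07 for Emx2 with E330013P04Rik, 3.99 and 3.24 for Emx2 with Smoc1, 3.45 and 3.13 for Emx2 with Pou3f3, and 2.83 and 2.15 for Emx2 with 3110099E03Rik. Of the E330013P04Rik cells, 46.7% and 56.2% also held an Emx2 UMI. Pou3f3 went with Pou3f4 at 4.21 and 3.63 and with Pantr1 at 4.07 and 3.54.

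3110099E03Rik went with Emx2 and Smoc1 more than with the POU genes and Pantr1. Its ratio was 2.78 and 2.35 with Smoc1, 1.5 and 1.21 with Pou3f3, 1.25 and 0.976 with Pantr1, and 0.763 and 0.834 with Pou3f4, which makes Pou3f4 the partner it was found with least. These ratios describe single libraries and were not tested.

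**Figure D5:**
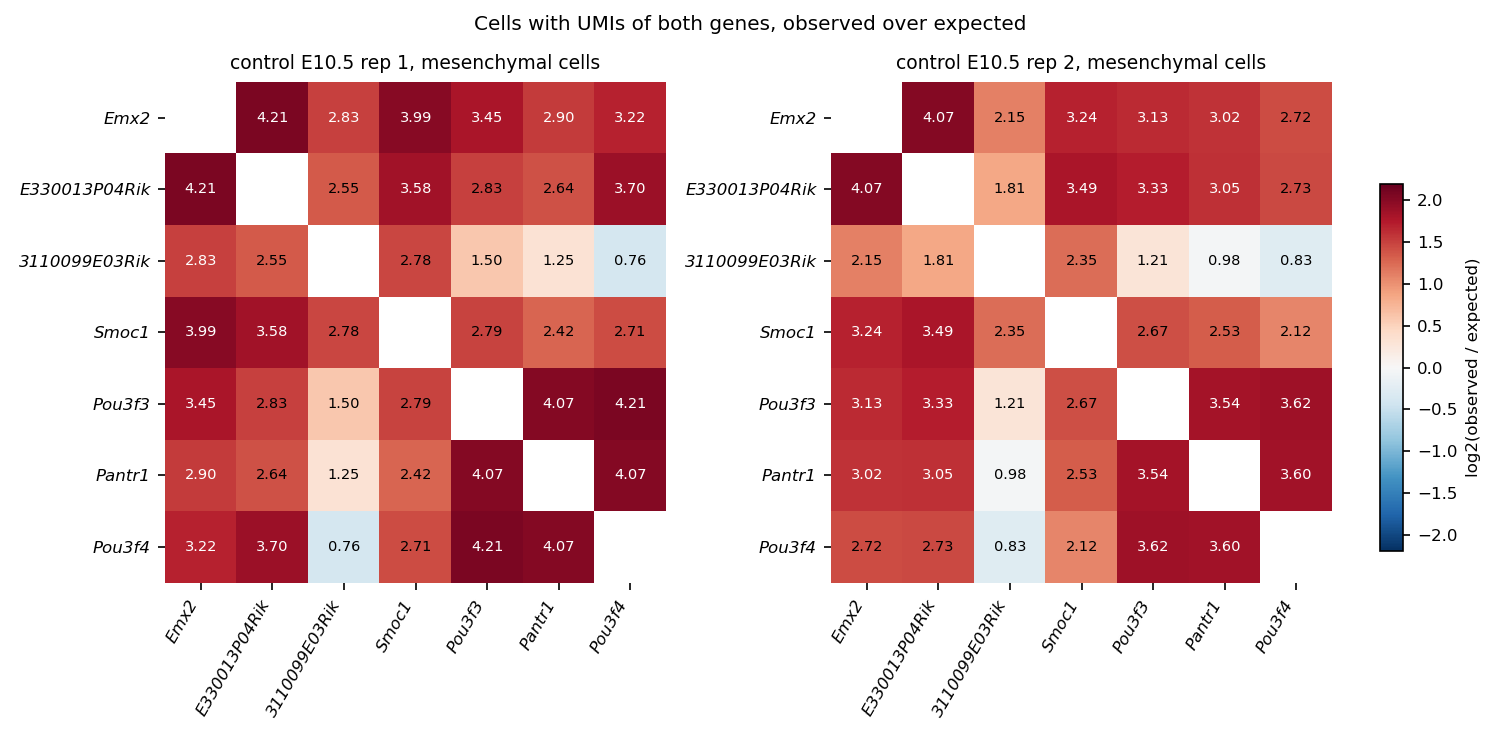
Ratio of cells with a UMI of both genes to the number from independent detection, for all pairs of the 7 genes in mesenchymal cells of control E10.5 replicates 1 and 2, thinned to 5000 UMIs. The ratio is 4.21 and 4.07 for Emx2 with E330013P04Rik and 0.763 and 0.834 for 3110099E03Rik with Pou3f4.

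In the null-labelled mesenchymal cells the POU genes and Pantr1 were still found together, at 3.50 and 3.09 for Pou3f3 with Pou3f4, 3.27 and 2.61 for Pou3f3 with Pantr1 and 4.05 and 2.38 for Pantr1 with Pou3f4. Pairs with Emx2 rested on 5 and 4 Emx2 cells, too few to compare: of the 5, 3 held a UMI of Pou3f3, 2 of Pantr1 and 2 of Pou3f4, and 0 of E330013P04Rik, 3110099E03Rik or Smoc1, and of the 4, 0 held a UMI of any of the 6 other genes. Cells with exactly 3 of the 7 genes made up 5.97% and 7.82% of control mesenchyme and 0.614% and 2.43% of null-labelled mesenchyme. Those with exactly 1 gene were not fewer, at 14.96% and 14.39% against 14.65% and 22.04%, values that overlapped.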

How the data were processed

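Per the labels, cells were sorted for EGFP and captured on the 10x Chromium platform, and the authors deposited filtered matrices of UMI counts per gene and cell made with Cell Ranger 6.0.1 on mm10. No normalization had been applied, and 0 per-sample columns were left unused. Groups follow the library titles. Barcodes needed 1000 genes or more and no more than 10% of UMIs from mitochondrial genes, and the highest Scrublet scores were removed as doublets (0.8% per 1000 barcodes). The sums of each class in each library were tested with edgeR 4.0.16 (filterByExpr, TMM, quasi-likelihood, Benjamini-Hochberg adjustment, threshold 0.05; R 4.3.3); DESeq2 1.42.0 was an alternative. The genotype fits used the 4 E10.5 libraries of a class, and the class fit had the library as a term. The fits were tested on simulated data. Shares were taken after thinning to 5000 UMIs, and zero counts were given the limit of 3 counts. UMIs remove most PCR copies, and intervals cover counting error only. The 7 genes, the lists and the rules were chosen with earlier results of these data known. The rule for named genes took the 7, a list of 5 relatives, called genes of 2 arch lists (none was called with all libraries), genes within 200 kb and the 12 genes most like Emx2. Outside it, Tbx1, Tubb3, Dlx5, Dlx6 and the genes said to be so were named after their values were seen. The cell filter, doublets, class rule, thinning, scaling, tool, low-count filter and left-out libraries were varied. The total depth was 140264662 to 234844769 UMIs per library.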

Additional observations from a re-analysis of the deposited data

How the results depend on the processing

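Counts of calls moved most. In mesenchymal cells at E10.5 the 4 calls became 640 with DESeq2, 1213 with no filter on low counts, 439 with the replicate block, 18 with doublets kept, 29 with the class rule on thinned cells, 22 with the stricter class rule and 16 with cells of both classes kept, and 3 to 1229 when a library was left out. In neural cells the 0 calls became 38 with DESeq2, 134 with no filter, 37 with the replicate block, 3 with the thinned class rule, and 4 to 146 when a library was left out. The class comparison went from 6461 to 2677 in the 4 control libraries. The cause of these moves was not tested. With cells of both classes kept, Pantr1 in mesenchymal cells turned to 0.00068. In neural cells Smoc1 turned to -0.013 with doublets kept, -0.010 with all barcodes and -0.057 with cells of both classes kept (-0.50 to 0.86 when a library was left out), and Pou3f1 to -0.049 with the thinned rule. When a library was left out, the neural folds ranged from -0.71 to 0.11 for Pantr1, -0.83 to 0.024 for Pou3f4, -0.25 to 0.70 for Pou3f1 and -0.31 to 0.39 for Pou3f2. The mesenchymal folds of Emx2, E330013P04Rik, 3110099E03Rik, Smoc1, Pou3f3 and Pou3f4 were negative in all 14 alternatives. The replicate numbers come from the titles: deviations of same-numbered libraries correlated at 0.114 (mesenchymal) and 0.214 (neural) over genes, and with 2 pairs the numbers are not shown to pair. With 2 libraries a group and null-labelled mesenchyme of 1695 to 2632 cells, small differences of Pantr1 and Pou3f4 could not be resolved. Scaling with DESeq2's size factors left the calls at 4 and 0. Arch bins of as few as 8 cells limit the zero counts there.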
